A study of Mus musculus with 6 samples.

Results

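The genes described are 38 lysosomal hydrolases, lysosomal membrane proteins, proton pump subunits and autophagy genes. They were listed by name with earlier results of these data known, so shares given for them are descriptions and not a test. All probe sets whose platform annotation gives exactly 1 symbol equal to a member were taken, which found 83 probe sets of 37 members, out of 18193 genes with such a probe set on the array. The membrane protein gene Cd63 had none and was not analysed here. Livers of 3 mice lacking S1P lyase (the Sgpl1 gene, labelled as a knockout) were set against livers of 3 wild-type (WT) mice, 1 Affymetrix array per animal. Both groups had a mixed background of the C57BL6 and 129sv strains and received no treatment, and the sources used here do not state age, sex or the design of the deleted allele. Values are the authors' log2 values per probe set. After probe sets under the 40th percentile of mean level (3.58 log2) were left out, 71 of the 83 member probe sets and at least 1 for each of the 37 members remained. Each gene was then read by its brightest remaining probe set. "Rose" and "fell" are used of genes that passed limma at 0.05 after Benjamini-Hochberg adjustment over the 13370 genes in the fit, knockout minus WT.

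Lysosomes are acidic organelles in which hydrolases break down protein, glycan and lipid that arrive by endocytosis or autophagy. A V-type ATPase in the lysosomal membrane pumps protons into the lumen, and the transcription factor TFEB drives many of these genes through a promoter sequence called the CLEAR element. Glycosphingolipids are dismantled there down to sphingosine, which can then be phosphorylated to sphingosine 1-phosphate (S1P), the lipid that S1P lyase irreversibly cleaves. In liver, hepatocytes and the resident macrophages, the Kupffer cells, both hold many lysosomes.

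The arrays fit their labels and the tissue, and their scale differed with genotype. Sgpl1 read 2.46, 2.99 and 2.87 log2 in knockout livers, against 6.65, 6.90 and 6.71 in WT livers (limma adjusted p = 1.5e-05). Hepatocyte marker genes, 11 of 12 tested, averaged 12.18 to 12.23 log2 in knockout livers and 12.21 to 12.50 in WT livers. Poly-A control RNAs of bacterial origin, added before labelling, were 0.75 log2 brighter on the knockout arrays, and 3' minus 5' values of Actb, Gapdh and Pcx were higher there by 0.45, 0.47 and 1.01 (exact permutation test, two-sided, p = 0.1 for each, the smallest that 3 against 3 arrays allow). Centring each array on the poly-A controls lowers every difference by 0.75 log2 and puts the median of all genes at -0.80, against -0.05 as deposited. Centring on the hepatocyte markers raises every difference by 0.19 and brings that median to 0.14. Each direction given is on the deposited scale, and any rise of less than 0.75 log2 lies below 0 on the poly-A scale. Centring shifts every probe set of an array alike, so it does not remove the 3' to 5' difference. For Actb, Gapdh and Pcx every knockout array lay above every WT array, so that difference and genotype cannot be told apart. Its part in the values of single probe sets was not tested.

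Of the 37 lysosomal genes, 10 rose, 2 fell and 25 did not pass, while 18.6% of all genes in the fit passed in either direction. Those that rose were the proteases Ctss, Lgmn, Ctsd and Ctsa, the glycosidases Hexa, Gusb and Neu1, the progranulin gene Grn, the autophagosome protein gene Map1lc3b and the proton pump accessory gene Atp6ap1. On the poly-A scale Ctsa, Neu1, Map1lc3b and Atp6ap1 lie below 0, and 6 of the 10 stay above it. Those that fell were the autophagy receptor gene Sqstm1 and the pump subunit gene Atp6v0d2. The share that rose was 27.0%, where 10.5% of all genes tested rose, and the share that fell was 5.41%, where 8.09% of all genes fell. The members' median difference was 0.14 log2, against -0.05 over all genes, and is -0.61 on the poly-A scale, where the gap to the median of all genes stays at 0.18. Without knockout replicate 2 the members' median was 0.04.

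The arrays of the 2 groups did not overlap in 16 of the 37 genes (43.2%), where 40.8% of all genes in the fit had no overlap. Knockout livers were the higher ones in 14 of the 37, where 19% of all genes in the fit lay that way. They were the lower ones in 2 of the 37, where 21.8% of all genes did. The 4 that were apart without passing the test were Lamp1, Mcoln1, Gla and Atp6v1a. No member found lies on the chromosome of Sgpl1. The mean over the 37 genes was 8.32, 8.46 and 8.30 log2 in knockout livers, against 8.06, 8.18 and 8.07 in WT livers.

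**Figure D1:**
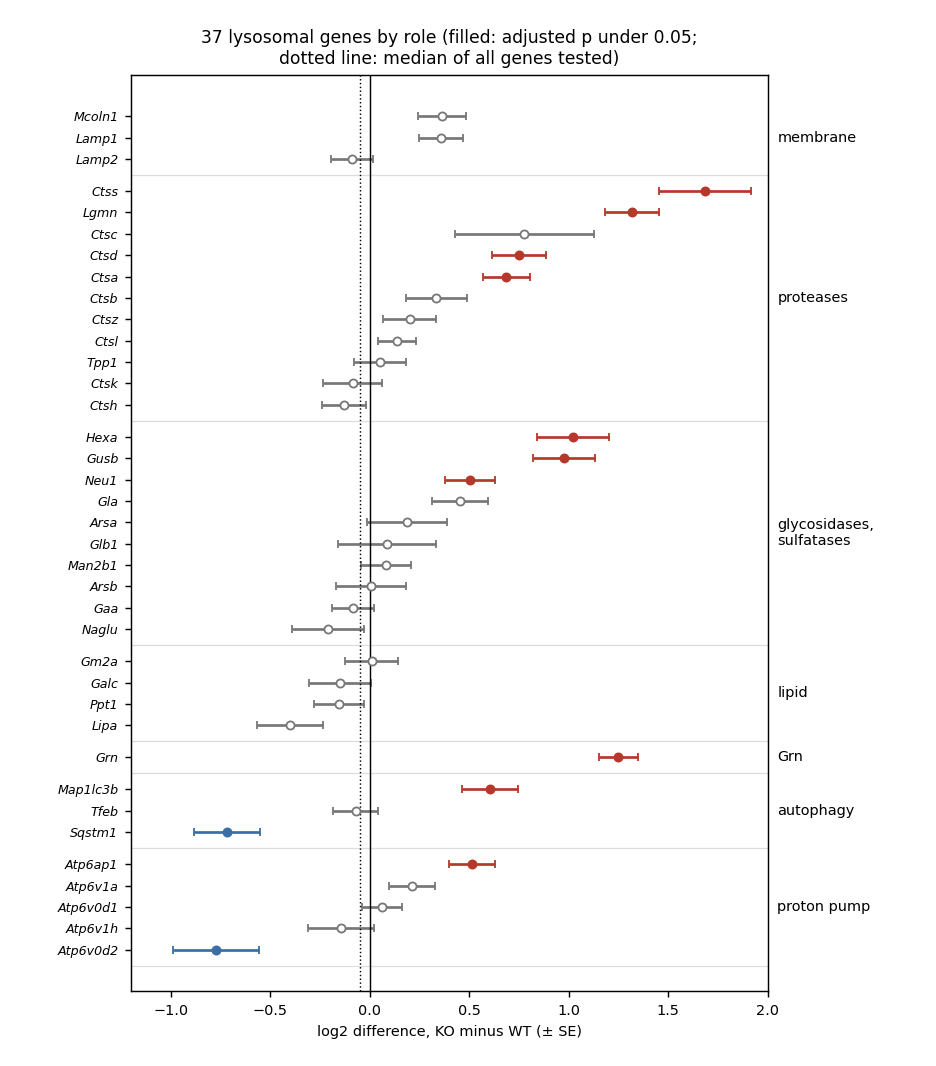
Log2 difference, knockout minus WT, with its SE for each of the 37 lysosomal genes, grouped by role; filled points passed the test (red rose, blue fell), open points did not, and the dotted line is the median of all genes tested (-0.05). The 11 protease genes and 10 glycosidase and sulfatase genes hold 7 of the 10 rises, where 10.5% of all genes tested rose. No gene of the lipid group passed. Subtracting 0.75 from every point gives the poly-A scale, on which Ctsa, Neu1, Map1lc3b and Atp6ap1 lie below 0.

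Among the 11 protease genes 4 rose (36.4%, where 10.5% of all genes tested rose), the other 7 did not pass, and the median difference was 0.34 log2. Ctss encodes cathepsin S, the cysteine protease that antigen-presenting cells use to trim the MHC class II invariant chain. Its values were 10.74, 10.80 and 10.84 log2 in knockout livers, against 8.81, 9.71 and 8.80 in WT livers. The knockout animals had an SD of only 0.05 while the second WT animal stood well above the other two, and the groups did not overlap. Ctss rose 3.22-fold (1.69 log2, SE 0.23, limma adjusted p = 0.00257), the largest difference of any member and the 204th highest of the 13370 genes tested. It passed whichever array was left out, at 1.53 to 1.99 log2.

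Lgmn, which encodes legumain, a protease that cuts after asparagine and matures cathepsins, came next. It read 8.45, 8.59 and 8.38 log2 in knockout livers, against 6.96, 7.36 and 7.14 in WT livers. The lowest knockout value was about 1 log2 above the highest WT value. The difference was 2.49-fold (1.32 log2, SE 0.14, limma adjusted p = 0.000772).

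Ctsd, the aspartic protease of lysosomes, and Ctsa, the carboxypeptidase that also protects the sialidase and beta-galactosidase from breakdown, rose less. Ctsd values were 10.08, 10.41 and 10.01 log2 in knockout livers, against 9.38, 9.54 and 9.33 in WT livers. Ctsa values were 8.92, 9.25 and 9.11 log2 in knockout livers, against 8.44, 8.40 and 8.38 in WT livers. In both genes the knockout animals were all higher, and the second was the highest. Ctsd rose 1.68-fold (0.75 log2, SE 0.13, limma adjusted p = 0.00777) and Ctsa 1.61-fold (0.69 log2, SE 0.12, limma adjusted p = 0.00679). With poly-A controls centred these differences are 0.0024 and -0.06. A much dimmer Ctsa probe set differed by -0.08, and with a gene's probe sets averaged Ctsa is at 0.30 and does not pass (limma adjusted p = 0.0653).

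The promoters of these genes are shown because TFEB's CLEAR element contains the letters CACGTG, printed in capitals, as is the longer run TCACGTGAC or its reverse complement. Sequences run from 250 bases before to 50 bases after the annotated start, 5' to 3', from RefSeq on GRCm38.p6.
Ctsa promoter (chr2:164833523-164833822, + strand): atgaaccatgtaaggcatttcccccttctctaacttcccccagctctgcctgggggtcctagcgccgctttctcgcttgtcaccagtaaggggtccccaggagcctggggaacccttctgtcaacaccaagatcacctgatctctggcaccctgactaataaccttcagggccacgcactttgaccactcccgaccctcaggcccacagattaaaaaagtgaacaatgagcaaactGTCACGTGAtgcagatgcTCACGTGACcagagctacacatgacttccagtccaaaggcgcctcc
Ctsd promoter (chr7:142387778-142388077, - strand): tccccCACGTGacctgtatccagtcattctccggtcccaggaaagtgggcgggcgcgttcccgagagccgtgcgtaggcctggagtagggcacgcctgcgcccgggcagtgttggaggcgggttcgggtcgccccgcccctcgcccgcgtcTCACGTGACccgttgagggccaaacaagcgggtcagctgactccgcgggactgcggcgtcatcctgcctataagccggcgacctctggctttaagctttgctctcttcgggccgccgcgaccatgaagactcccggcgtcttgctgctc
Lgmn promoter (chr12:102439043-102439342, - strand): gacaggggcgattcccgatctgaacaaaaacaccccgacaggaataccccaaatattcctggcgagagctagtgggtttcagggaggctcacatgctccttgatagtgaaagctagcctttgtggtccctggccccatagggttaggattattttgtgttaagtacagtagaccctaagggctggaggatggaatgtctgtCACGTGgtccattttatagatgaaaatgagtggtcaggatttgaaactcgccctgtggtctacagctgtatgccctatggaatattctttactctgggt
Ctss promoter (chr3:95526536-95526835, + strand): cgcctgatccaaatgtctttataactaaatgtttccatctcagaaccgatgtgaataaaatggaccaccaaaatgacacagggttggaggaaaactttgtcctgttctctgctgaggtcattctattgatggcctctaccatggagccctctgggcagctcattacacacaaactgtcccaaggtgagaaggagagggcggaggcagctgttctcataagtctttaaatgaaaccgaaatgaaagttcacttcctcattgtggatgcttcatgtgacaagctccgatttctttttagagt
The Ctsa window holds the longer run in both orientations, with 1 CACGTG 12 bases before the start and the other just after it. Ctsd holds it once, with its CACGTG 98 bases before the start, and has a further CACGTG upstream. The second annotated start of Ctsa has neither. Of the 2 annotated Lgmn starts, the one shown has a CACGTG 49 bases before it and the other has none. Ctss, the member with the highest rise, has no CACGTG in its window.

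The 7 other proteases did not pass. Ctsc, the dipeptidyl peptidase that activates the serine proteases of neutrophil granules, had a larger difference than Ctsd but also the largest spread of the members. It read 9.41, 9.92 and 10.20 log2 in knockout livers, against 8.94, 9.83 and 8.42 in WT livers (0.78 log2, SE 0.35, limma adjusted p = 0.155). The second WT animal, also the WT animal highest in Ctss, lay inside the knockout range, and without it Ctsc differed by 1.16 (limma adjusted p = 0.025). Over the arrays left out in turn Ctsc ran from 0.46 to 1.16 (limma adjusted p up to 0.325), passing only without that WT animal. Mean macrophage marker level, 8.38 to 8.50 log2 in knockout livers, was 8.09 in that WT animal and 7.78 and 7.58 in the other WT animals, and its part in these values was not tested.

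Ctsb and Ctsl, the main lysosomal cysteine endopeptidases of most cells, differed by 0.34 and 0.14 log2 without passing. Cathepsin Z (Ctsz), a carboxypeptidase, and the tripeptidyl peptidase Tpp1 differed by 0.20 and 0.05. Ctsh, an aminopeptidase, was at -0.13. The collagen-degrading Ctsk, best known from osteoclasts, was dim, at 4.52 ± 0.16 log2 (SD, n = 3) in knockout livers and 4.61 ± 0.23 in WT livers. The SEs of these 6 differences lay between 0.10 and 0.15. All but Ctsh and Ctsk lie above 0 as deposited, all 6 lie below 0 on the poly-A scale, and Ctsh and Ctsk lie above 0 with arrays centred on hepatocyte markers.

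**Figure D2:**
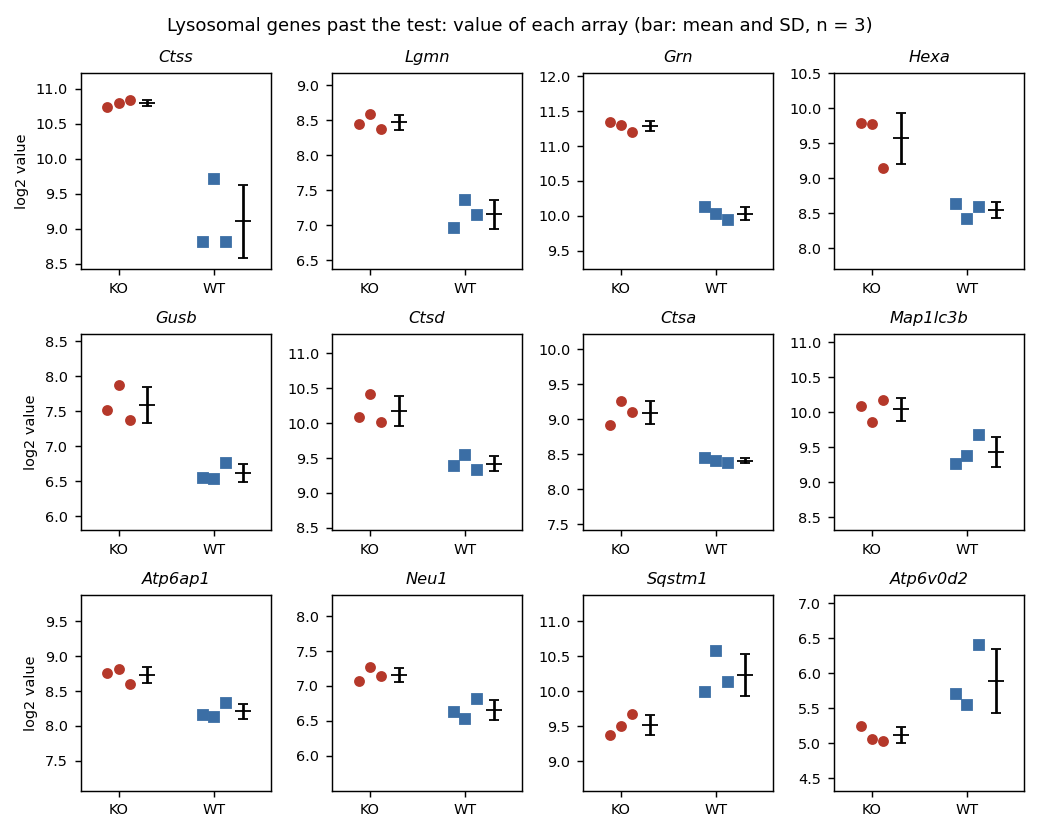
Log2 value of each array for the 12 lysosomal genes that passed the test, knockout (red circles) left and WT (blue squares) right, with the mean and SD of each group (n = 3) beside the points; every panel spans 2.8 log2 around its own centre. In all 12 genes the groups do not overlap, which is no separate result because these genes were chosen for passing the test. Of all genes in the fit, 40.8% had no overlap. Ctss and Atp6v0d2 have 1 WT animal away from the other WT animals. Sqstm1 and Atp6v0d2 are the ones lower in knockout. On the poly-A scale Ctsa, Neu1, Map1lc3b and Atp6ap1 would lie lower in knockout as well.

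Of the 10 glycosidase and sulfatase genes 3 rose (30%, where 10.5% of all genes tested rose). The other 7 did not pass, and the median difference was 0.14 log2. Hexa encodes the alpha subunit of beta-hexosaminidase A, the enzyme of GM2 ganglioside breakdown. It read 9.78, 9.77 and 9.15 log2 in knockout livers, against 8.64, 8.42 and 8.59 in WT livers, so that the third knockout animal was closer to WT than the other two. Hexa rose 2.03-fold (1.02 log2, SE 0.18, limma adjusted p = 0.00768). Gusb, the beta-glucuronidase that trims glycosaminoglycans, read 7.52, 7.88 and 7.37 log2 in knockout livers, against 6.55, 6.53 and 6.77 in WT livers. It rose 1.97-fold (0.98 log2, SE 0.16, limma adjusted p = 0.00471), and its other probe set, which was dimmer, differed by 0.43 without passing over all probe sets tested. Hexa and Gusb stay above 0 on the poly-A scale, at 0.27 and 0.23, without passing.

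Neu1, the lysosomal sialidase, acts in a complex with the products of Ctsa and Glb1, the beta-galactosidase. Its values were 7.07, 7.27 and 7.14 log2 in knockout livers, against 6.62, 6.53 and 6.82 in WT livers. Neu1 rose 1.42-fold (0.50 log2, SE 0.12, limma adjusted p = 0.0271) and is at -0.24 on the poly-A scale. Leaving out any 1 knockout animal, or WT replicate 1 or 2, cost it the call, with differences of 0.44 to 0.58, and with a gene's probe sets averaged (0.20). Glb1 read 5.73, 6.48 and 5.56 log2 in knockout livers, against 6.03, 5.92 and 5.56 in WT livers, and did not pass (0.09 log2, SE 0.25). The groups overlap, and only the second knockout animal lies above the WT range. Of the 3 partners, Ctsa and Neu1 thus passed and Glb1 did not, and the differences between them were not tested.

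None of the other sugar-degrading enzymes passed. Gla, the alpha-galactosidase A that cleaves globotriaosylceramide, was 0.45 higher (SE 0.14, limma adjusted p = 0.0608) with all knockout arrays above all WT arrays. With 1 array left out, it passed only without knockout replicate 3, at 0.56 (limma adjusted p = 0.0404). Its differences over these fits ran from 0.36 to 0.56 (limma adjusted p up to 0.176). The sulfatase genes Arsa and Arsb differed by 0.19 and 0.01, and Man2b1, the alpha-mannosidase of glycoprotein breakdown, by 0.08. Gaa, which degrades glycogen, was at -0.08, and Naglu, an enzyme of heparan sulfate breakdown, at -0.21. Each of these 6 lies below 0 on the poly-A scale, and with hepatocyte centring Gaa is at 0.11. Within the knockout group, the second animal was the highest in 8 of these 10 glycosidase and sulfatase genes and the third the lowest in 9.

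None of the 4 lipid genes passed, where 18.6% of all genes in the fit did. Lipa, the acid lipase that frees cholesterol and fatty acids from lipoprotein esters, was lower by 0.40 log2 (SE 0.17, limma adjusted p = 0.13). Its values were 8.53, 8.91 and 8.44 log2 in knockout livers, against 9.12, 9.19 and 8.77 in WT livers, and the groups overlap. Galc, the galactosylceramidase, and Ppt1, a thioesterase that removes palmitate from proteins, were at -0.15 each. Gm2a, the activator protein that presents GM2 ganglioside to the Hexa product, differed by 0.01 on its brighter probe set. Its second probe set read 6.90, 7.04 and 7.10 log2 in knockout livers, against 7.66, 7.87 and 7.48 in WT livers, and fell (-0.65 log2, SE 0.14, limma adjusted p = 0.015 over all probe sets). The direction of Gm2a therefore depends on the probe set read.

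Grn had the smallest SE of the members that rose. Its product, progranulin, is a secreted precursor that is cut into granulins in the lysosome and that macrophages make in quantity. The gene read 11.34, 11.30 and 11.21 log2 in knockout livers, against 10.12, 10.03 and 9.94 in WT livers. Every knockout animal was more than 1 log2 above every WT animal. Grn rose 2.38-fold (1.25 log2, SE 0.10, limma adjusted p = 0.000219), with the smallest adjusted p of the members. Its 3 probe sets rose by 1.25, 1.19 and 1.13. The difference stays at 0.50 on the poly-A scale and passes there. The Grn promoter, shown for comparison with those above as the largest rise outside the proteases, holds no CACGTG.
Grn promoter (chr11:102430257-102430556, + strand): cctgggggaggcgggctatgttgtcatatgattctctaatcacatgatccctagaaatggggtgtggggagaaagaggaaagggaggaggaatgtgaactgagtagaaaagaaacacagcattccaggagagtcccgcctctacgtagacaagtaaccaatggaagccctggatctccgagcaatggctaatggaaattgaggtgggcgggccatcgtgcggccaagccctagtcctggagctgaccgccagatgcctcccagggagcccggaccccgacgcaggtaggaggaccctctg

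The 3 membrane protein genes did not pass, where 18.6% of all genes in the fit did, and their median difference was 0.36 log2. Lamp1, a heavily glycosylated protein that makes up much of the lysosomal membrane, read 11.02, 11.26 and 11.02 log2 in knockout livers, against 10.85, 10.75 and 10.62 in WT livers. The groups did not overlap (0.36 log2, SE 0.11, limma adjusted p = 0.0609). It passed with array medians centred (0.39), with array quality weights (0.37) and with hepatocyte centring (0.55). In these 3 settings 11.0%, 12.8% and 15.8% of all genes rose, against 10.5% without these changes. It did not pass in 11 other settings, leaving out any 1 array among them (0.28 to 0.41). Lamp1 is at -0.39 on the poly-A scale. Mcoln1, the calcium channel of the lysosome, was higher by 0.36 (SE 0.12, limma adjusted p = 0.0739) and is at -0.38 on that scale. Its other tested probe sets differed by -0.08 and 0.04.

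Lamp2, whose splice forms take part in autophagy, was read by 4 probe sets that did not move alike. The brightest differed by -0.09 log2. Another read 9.28, 9.13 and 9.45 log2 in knockout livers, against 9.88, 9.96 and 10.06 in WT livers, and fell (-0.68 log2, SE 0.12, limma adjusted p = 0.00751 over all probe sets). The remaining probe sets differed by -0.30 and 0.22 without passing. The sources used here do not say which splice form each probe set reads.

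Both members that bind autophagic cargo or membranes passed, in opposite directions. Sqstm1 encodes p62, the receptor that ties ubiquitinated cargo to autophagosomes. It read 9.38, 9.5002 and 9.67 log2 in knockout livers, against 9.99, 10.58 and 10.13 in WT livers. Sqstm1 fell by 0.72 log2 (SE 0.17, limma adjusted p = 0.0215) and lost its call without knockout replicate 1 or 2, with differences of -0.84 to -0.54 over the arrays left out. With hepatocyte centring it is at -0.53 and with its probe sets averaged at -0.38, passing in neither, and its dim second probe set differed by -0.05. Map1lc3b encodes LC3B, the protein that is joined to lipid on autophagosome membranes. It read 10.08, 9.86 and 10.17 log2 in knockout livers, against 9.26, 9.37 and 9.67 in WT livers. Map1lc3b rose 1.52-fold (0.61 log2, SE 0.14, limma adjusted p = 0.0228), and a second of its 4 tested probe sets rose by 0.61 as well. It is at -0.14 on the poly-A scale and did not pass once knockout replicate 1 or 3, or WT replicate 1 or 2, was left out (0.52 to 0.72 over the 6 arrays left out). Tfeb, the transcription factor itself, read 6.17, 6.35 and 6.38 log2 in knockout livers, against 6.39, 6.31 and 6.404 in WT livers (-0.07 log2, SE 0.11, limma adjusted p = 0.682). The groups overlap.

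Of the 5 proton pump members, 1 rose (20%), 1 fell (20%) and 3 did not pass. Over all genes tested, 10.5% rose and 8.09% fell. Atp6ap1, an accessory subunit needed for assembly of the pump, read 8.76, 8.81 and 8.60 log2 in knockout livers, against 8.16, 8.13 and 8.33 in WT livers. It rose 1.43-fold (0.52 log2, SE 0.12, limma adjusted p = 0.0195) and is at -0.23 on the poly-A scale. The call needed knockout replicates 1 and 2 and WT replicates 1 and 2, each of which ended it when left out (0.47 to 0.58). The pump's d subunit has 2 forms, Atp6v0d1, found in most tissues, and Atp6v0d2, known from osteoclasts, macrophages and kidney. Atp6v0d2 read 5.24, 5.06 and 5.03 log2 in knockout livers, against 5.71, 5.55 and 6.41 in WT livers. Every WT value was higher, the third by far, and Atp6v0d2 fell by 0.77 log2 (SE 0.22, limma adjusted p = 0.0418). This call was lost without any 1 of the knockout replicates or without WT replicate 1 (-0.94 to -0.52 over the arrays left out), and with array medians or hepatocyte markers centred.

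Atp6v0d1 had 9.004, 9.12 and 9.08 log2 in knockout livers, against 8.996, 8.94 and 9.08 in WT livers, a difference of 0.06 (SE 0.10). Atp6v1a, the catalytic A subunit, was 0.21 higher (SE 0.11, limma adjusted p = 0.224) on its brighter probe set. On its other probe set, at 7.59, 7.73 and 7.57 log2 in knockout livers, against 7.02, 6.90 and 7.09 in WT livers, it rose by 0.63 (limma adjusted p = 0.00962 over all probe sets). Atp6v1h, a regulatory subunit, was at -0.15 (SE 0.17). Atp6v0d1 and both probe sets of Atp6v1a lie below 0 on the poly-A scale.

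**Figure D3:**
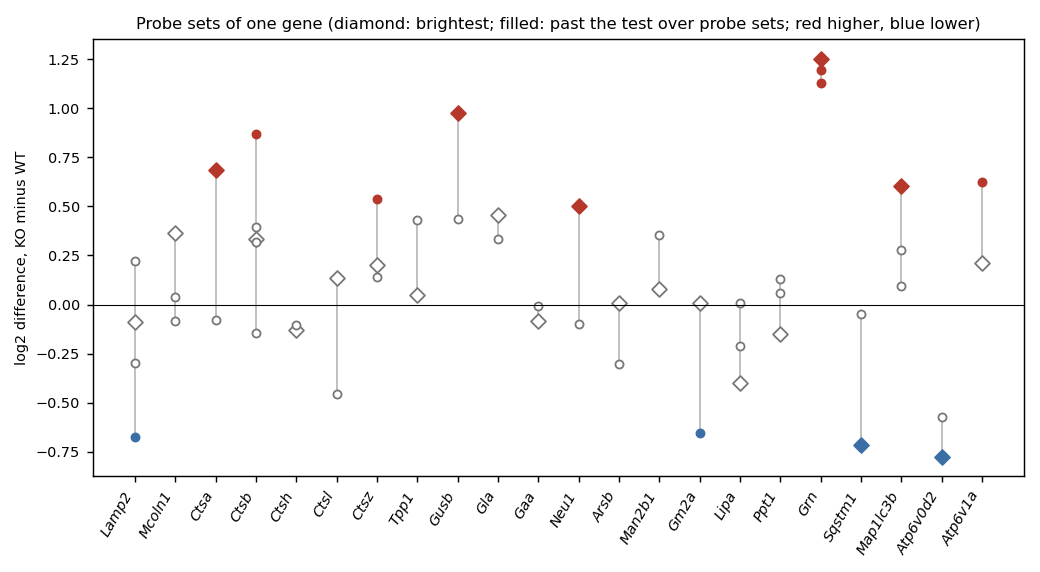
Log2 difference, knockout minus WT, of each tested probe set for the 22 lysosomal genes read by more than 1; diamonds mark the brightest probe set, filled symbols passed the test over all probe sets (red rose, blue fell). The 3 Grn probe sets lie together at 1.13 to 1.25, those of Lamp2 run from -0.68 to 0.22, and those of Lamp2, Ctsb, Ctsz, Gm2a and Atp6v1a include 1 that passed beside a brightest one that did not; on the poly-A scale every point lies 0.75 lower.

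Over all 71 tested member probe sets, 16 rose and 4 fell (22.5% and 5.63%), where 10.1% of all 27022 probe sets tested rose, 7.82% fell and 17.9% did either. Besides those named, 1 dim Ctsb probe set, at a mean of 5.45 log2 in knockout livers and 4.58 in WT livers, rose by 0.87, and 1 Ctsz probe set rose by 0.54. No member had a probe set that rose and another that fell. With poly-A controls centred 46 probe sets were called, and every difference between 0 and 0.75 as deposited lies below 0 there.

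**Figure D4:**
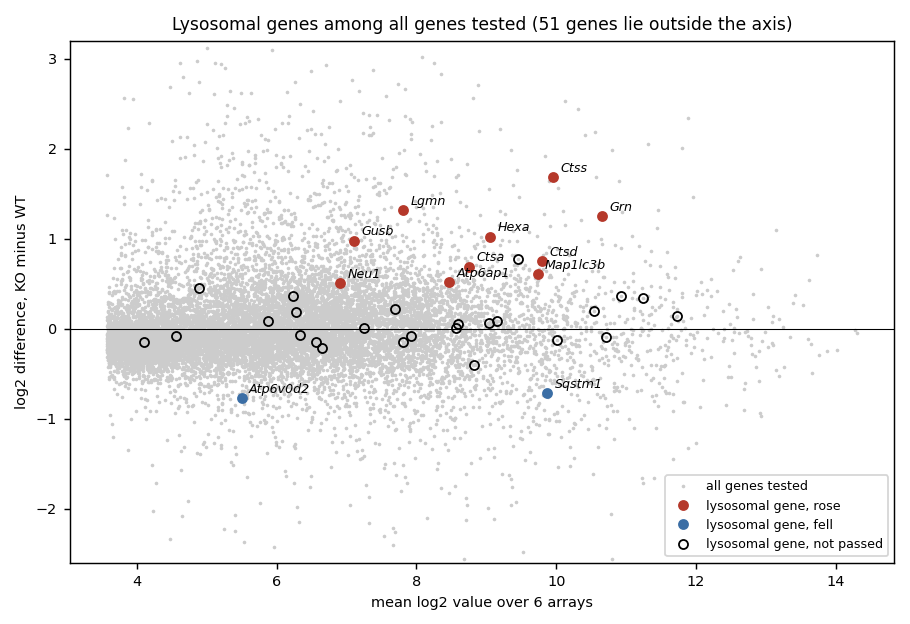
Log2 difference, knockout minus WT, against mean log2 value over the 6 arrays for all 13370 genes tested (grey) and the 37 lysosomal genes (coloured by call); 51 genes lie outside the axis. The lysosomal genes lie at low, middle and high levels, and Ctss, at 1.69, is the highest of them; on the poly-A scale every point lies 0.75 lower, which puts 6 of the 10 that rose above 0.

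A second list, of 101 further lysosomal, sorting and autophagy genes, was set beside the members. Of the 91 tested, 16 rose (17.6%) and 6 fell (6.59%), where 10.5% of all genes rose and 8.09% fell, and their median was 0.09 log2, against -0.05 over all genes. Of the 16 rises, 8 lie below 0 on the poly-A scale: those of Atp6v0b, Atp6v0e and Atp6ap2, given next, and, chosen for this after their values were seen, Tcirg1 (0.68 as deposited), Atp6v1g1 (0.60), Hgsnat (0.51), Cln8 (0.58) and Sumf1 (0.48). Of the 16 further proton pump genes, 7 rose and 1 fell, with a median of 0.41. Atp6v1b2 and Atp6v1c1, subunits of the cytosolic part, rose by 0.89 (SE 0.13) and 0.94 (SE 0.14), and Atp6v0b, Atp6v0e and the accessory subunit Atp6ap2 by 0.61, 0.62 and 0.64 (limma adjusted p = 0.00766 or lower for each). On the poly-A scale Atp6v1b2 and Atp6v1c1 are at 0.14 and 0.19 and the other 3 at -0.14, -0.13 and -0.11, none of them passing.

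Further hydrolases and cofactors rose in 3 of 24 cases (12.5%) and fell in 2 (8.33%), shares near those of all genes (10.5% and 8.09%). The list of further membrane proteins, which also holds the soluble carrier Npc2, rose in 3 of 19 cases (15.8%), Npc2 among them. Laptm5, a lysosomal membrane protein of blood cells, read 9.45, 9.11 and 8.72 log2 in knockout livers, against 6.15, 6.80 and 6.17 in WT livers, and rose by 2.72 (SE 0.23, limma adjusted p = 0.000315). Cd68, a lysosomal glycoprotein used as a macrophage marker, rose by 1.58 (SE 0.26) and the cholesterol carrier Npc2 by 0.82 (SE 0.13). Psap, whose product is cut into the activators of sphingolipid hydrolases, rose by 1.21 (SE 0.14, limma adjusted p = 0.00123). Psap lies on the chromosome of Sgpl1, so that a strain difference there and a response cannot be told apart. The same holds for Atg5, an autophagy gene of the second list that fell (-0.49 log2, SE 0.13, limma adjusted p = 0.0347). Laptm5 and Cd68 still pass on the poly-A scale, while Npc2 and Psap are at 0.07 and 0.46 and do not.

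Of 9 sorting genes, 2 rose (22.2%, Cln8 and Sumf1, both below 0 on the poly-A scale) and 1 fell (11.1%). Of 23 further TFE factor and autophagy genes, 1 rose (4.35%) and 2 fell (8.7%). Over all genes tested, 10.5% rose and 8.09% fell. Rragd, a GTPase that recruits mTORC1 to lysosomes, rose by 1.13 log2 (SE 0.23) at dim values, and Gabarapl1, a relative of Map1lc3b, fell by 1.14 (SE 0.24), each with a limma adjusted p of 0.0135. The Rragd call was lost on leaving out knockout replicate 1 (0.997) or 2 (1.02) and on the poly-A scale (0.38), and Gabarapl1 without knockout replicate 1 (-1.02).

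Markers of the cell types that could carry these transcripts also differed between the groups. In whole liver, fewer cells of a type and less RNA per cell cannot be told apart. Beside the marker counts below, 10.5% of all genes tested rose and 8.09% fell. Of 9 general macrophage markers 2 rose, Cd68 and the lysozyme gene Lyz2, with a mean list level of 8.38 to 8.50 log2 in knockout livers and 7.58 to 8.09 in WT livers. Adgre1, Csf1r, C1qa, C1qb, C1qc, Mrc1 and Mertk differed by -0.08 to 0.33 and did not pass. Of 8 Kupffer cell markers 2 rose and 5 fell (list means of 6.73 to 6.95 log2 in knockout livers and 7.40 to 7.84 in WT livers). Marco and Cd5l rose, and Clec4f, Timd4, Vsig4, Cd163 and Folr2 fell. All 6 tested markers of lipid-associated macrophages rose (7.76 to 8.28 log2 in knockout livers and 5.37 to 6.04 in WT livers). So did 8 of 9 neutrophil markers (9.06 to 9.38 in knockout livers and 5.36 to 5.61 in WT livers) and all 4 tested B and plasma cell markers (6.21 to 6.60 in knockout livers and 4.30 to 4.35 in WT livers). The macrophage list mean was higher by 0.62 log2, less than the 0.75 by which the poly-A scale lowers each difference, and the other 3 of these higher list means by 2.29, 3.70 and 2.12, in the same order.

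T and NK cell markers rose in 2 of 3 cases (5.66 to 5.84 log2 in knockout livers and 4.48 to 4.90 in WT livers), endothelial markers rose in 1 and fell in 1 of 6, stellate cell markers fell in 2 of 6, and none of the 3 cholangiocyte or 3 osteoclast markers tested passed. Of the hepatocyte markers, 4 of 11 fell and none rose. For each of these lists the shares over all genes are 10.5% that rose and 8.09% that fell. The part of these cell types in the lysosomal differences was not tested.

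Promoter entries existed for 33 of the 37 members, 37 windows in all, credited to RefSeq with the build GRCm38.p6. CACGTG, which reads the same on both strands, occurred in 13 of the 37 windows (35.1%) and in 7.15% of all 32851 windows of that length. TCACGTGAC or its reverse complement GTCACGTGA, which contain CACGTG, occurred in 5 windows (13.5%) and in 0.782% of all. By call, CACGTG was found for 3 of the 10 members that rose, 10 of the 22 that did not pass and 0 of 1 that fell and had an entry. The median difference was 0.21 log2 for the 13 members with CACGTG and 0.07 for the others with an entry. Both medians lie 0.75 lower on the poly-A scale. A match is a description of these letters and not a site.
Beside Ctsa, Ctsd and Lgmn, the 10 members below hold CACGTG and did not pass, shown as a short stretch around 1 copy to set them beside the promoters of the genes that rose. The coordinates are those of the whole promoter window that the stretch was taken from.
Mcoln1 (chr8:3500269-3500568, + strand): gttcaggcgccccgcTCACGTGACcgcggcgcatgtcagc
Gla (chrX:134600956-134601255, - strand): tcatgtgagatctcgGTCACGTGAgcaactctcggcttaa
Atp6v0d1 (chr8:105566015-105566314, - strand): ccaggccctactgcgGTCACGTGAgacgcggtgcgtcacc
Lamp1 (chr8:13158911-13159210, + strand): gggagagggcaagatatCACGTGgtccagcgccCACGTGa
Atp6v1a (chr16:44139210-44139509, - strand): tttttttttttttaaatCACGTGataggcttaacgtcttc
Arsa (chr15:89477375-89477674, - strand): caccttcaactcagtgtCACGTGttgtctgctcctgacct
Ctsl (chr13:64370471-64370770, - strand): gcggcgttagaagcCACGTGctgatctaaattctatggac
Glb1 (chr9:114400828-114401127, + strand): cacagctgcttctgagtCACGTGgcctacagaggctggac
Gaa (chr11:119267713-119268012, + strand): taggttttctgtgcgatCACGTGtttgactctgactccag
Naglu (chr11:101069844-101070143, + strand): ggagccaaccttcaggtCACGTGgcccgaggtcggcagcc
Mcoln1, Gla and Atp6v0d1 hold the longer run, as Ctsa and Ctsd do, with differences of 0.36, 0.45 and 0.06 log2. Lamp1 has 4 copies of CACGTG, the most of any member window, the farthest 61 bases before its start, and differed by 0.36. On the poly-A scale Mcoln1, Gla, Atp6v0d1 and Lamp1 all lie below 0.

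**Figure D5:**
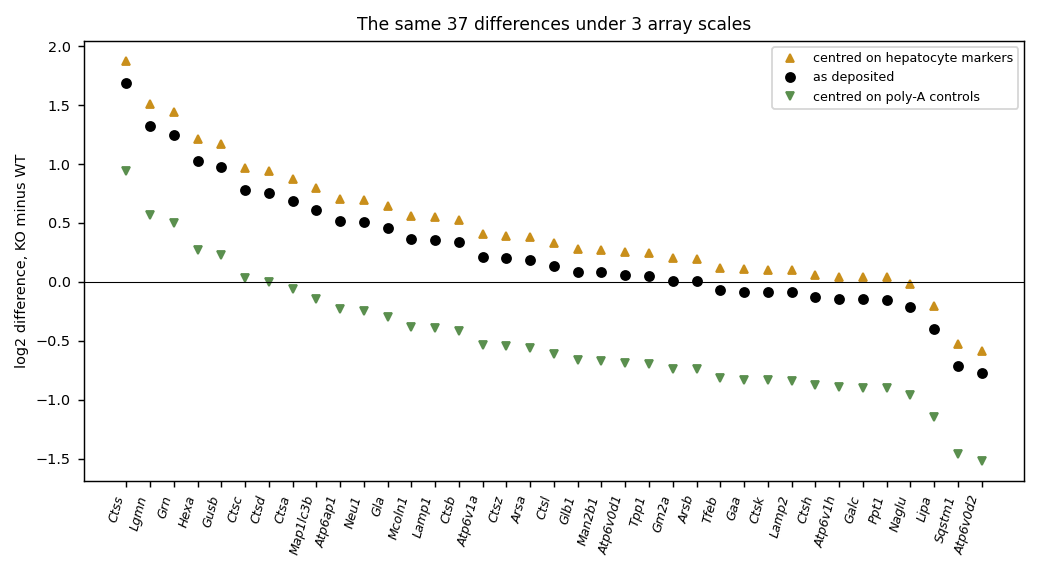
Log2 difference, knockout minus WT, of the 37 lysosomal genes on the deposited scale (black) and with arrays centred on hepatocyte markers (orange) or on poly-A controls (green), genes ordered by the deposited value. Ctss, Lgmn and Grn are above 0 on all 3 scales by the widest margins, Sqstm1, Atp6v0d2, Lipa and Naglu are below 0 on all 3, and the scales differ by a constant 0.75 and 0.19.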

How the data were processed

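Liver RNA was extracted with TRIzol and labelled with biotin by the Affymetrix protocol, per the labels' protocols. The deposited table holds 1 log2 value per probe set and array, made by the authors. MAS5 is named, without a version or a role, per the submitters' processing notes. The log2 scale was read from the range of the values (1.68 to 14.3). The sources used here do not state background correction or summarization, and no detection calls were used. Low values therefore cannot be told from background, and the size of folds of dim genes is uncertain.

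Of 45101 probe sets, 64 are controls. A single gene symbol is annotated for 34945, more than 1 for 932, and 9160 are unnamed here. Of those with a single symbol, 34741 matched RefSeq by gene identifier. Limma 3.58.1 in R 4.3.3 (lmFit, eBayes with intensity trend, two-sided) was run on 27022 probe sets and on 13370 genes, without covariates, and tested on simulated data. Groups were taken from the labels; replicates are separate mice, numbered only to name them, and their number limits the precision. All 38 members are accounted for, and those that passed have every array's value. Other lysosomal genes named are those with the 10 smallest adjusted p-values, ties included. Tcirg1, Atp6v1g1, Hgsnat, Cln8 and Sumf1 were named besides, for their place on the poly-A scale, and Atg5 for its chromosome, all after their values were seen. Members, lists and tests were chosen with earlier results of these data known. Probe sets can share sequence with related transcripts. Other settings tried were filters, normalizations, scales, variance models, averaging each gene's probe sets and leaving out each array.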

Additional observations from a re-analysis of the deposited data

How the results depend on the processing

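The 6 arrays limit what can be called, and dim probe sets cannot be told from background. Without any 1 array, the members that rose numbered 7 to 10 and those that fell 0 to 2 (0 without knockout replicate 1 or 2), their median ran from 0.0363 to 0.206 log2, member probe sets called from 12 to 20, and further lysosomal genes that rose from 10 to 16 and that fell from 0 to 5. In these fits 5.92% to 10.7% of all genes rose and 3.93% to 7.06% fell. Of the 12 members called, 7 kept their call whichever array was left out. When 1 array was left out the sign changed in Arsb (-0.0942 to 0.206), Tpp1 (-0.0457 to 0.148), Glb1 (-0.192 to 0.267), Arsa (-0.0256 to 0.314), Man2b1 (-0.00783 to 0.181), Gm2a (-0.0806 to 0.0842), Ctsk (-0.177 to 0.0442) and Atp6v1h (-0.271 to 0.0194). With arrays centred on poly-A controls, 3 members rose, 22 fell, 46 member probe sets were called, 2 further lysosomal genes rose and 61 fell, where 377 of all genes rose and 10120 fell. The members' median became -0.61, and the sign turned for Lamp1 (-0.39), Mcoln1 (-0.38), Ctsa (-0.0629), Ctsb (-0.41), Ctsl (-0.61), Ctsz (-0.55), Tpp1 (-0.70), Glb1 (-0.66), Gla (-0.29), Neu1 (-0.24), Arsa (-0.56), Arsb (-0.74), Man2b1 (-0.67), Gm2a (-0.74), Map1lc3b (-0.14), Atp6v0d1 (-0.69), Atp6v1a (-0.54), Atp6ap1 (-0.23) and, of the further genes, Atp6ap2 (-0.11), Atp6v0b (-0.14) and Atp6v0e (-0.13). This follows from the constant subtracted. With hepatocyte markers centred, 0 members fell by limma, 1 further gene fell, 2110 of all genes rose and 396 fell, the members' median was 0.33, and the sign turned for Lamp2 (0.10), Ctsh (0.0615), Ctsk (0.10), Gaa (0.11), Galc (0.0416), Ppt1 (0.0384), Tfeb (0.12) and Atp6v1h (0.0449). Members that fell numbered 1 with array medians centred and 1 with the mean of probe sets, and further genes that fell numbered 10 with array quality weights, where 10.6% of all genes fell. The sign also turned for Arsb with quantile normalization (-0.0653), for Gm2a with array weights (-0.00922), and with the mean of probe sets for Ctsl (-0.16), Arsb (-0.15), Gm2a (-0.32) and Ppt1 (0.0125). Apart from these scales, the cause was not tested. The settings for the named further genes were chosen after seeing the data. No paired analysis was possible because the labels link no knockout animal to a WT animal.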
